A study of Homo sapiens with 6 samples.

Results

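Shared DEK intervals at bidirectional coding promoters were the stretches where DEK peaks of both precipitations overlapped by at least 1 bp and whose middle lay within 1000 bp of a transcription start site (TSS) of a protein-coding gene and also within 1000 bp of a TSS of any gene on the opposite strand. There were 233 such intervals among the 4453 stretches shared by both DEK peak lists, and they lay at 222 distinct pairs of genes. TSSs were taken from GENCODE release 44 on GRCh37, the same genome build as hg19, and no measured value other than the peak positions entered the choice. The 233 intervals came from 222 peaks of replicate 1 and 233 peaks of replicate 2, and 22 of them shared their replicate 1 peak with another of the 233. Most comparisons below set them beside the 629 shared intervals at unidirectional coding promoters, which lay within 1000 bp of a coding TSS but of no TSS on the other strand. A further 299 shared intervals lay only at noncoding starts and 3274 lay at over 1000 bp from any TSS.

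DEK was mapped by ChIP-seq in U937, an established human cell line of monocytic character, grown without treatment in RPMI 1640 medium with fetal bovine serum. The series held 6 samples of these cells, all crosslinked with formaldehyde: 2 precipitations with a DEK antibody, 2 with an antibody against trimethylated lysine 4 of histone H3 (H3K4me3), and 2 Input samples with no antibody. Peak lists of the DEK and H3K4me3 precipitations were used, and the Input samples were not analysed here. The cells carried no genetic change made for the study, so the comparisons were between places in 1 genome and not between treatments.

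DEK is an abundant, non-histone chromatin protein that binds DNA and histones and can change the superhelical state of DNA. A bidirectional promoter starts transcription on both strands from a short stretch of DNA, either toward a pair of coding genes arranged head to head or toward a coding gene on one side and a noncoding RNA on the other. Such promoters are known to be rich in CpG dinucleotides, often lack a TATA box, and serve many housekeeping genes, while H3K4me3 marks the nucleosomes around active starts.

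The DNA between the starts is shown for the head-to-head coding pairs that carried the strongest shared DEK binding, because this is the stretch that both genes share. Each sequence is the plus strand of GRCh37 between the start bases, in a gap of at most 300 bp that no annotated exon enters. Capitals mark, on either strand, the letters of the ETS motif (CCGGAAG), the NRF1 motif, the NF-Y motif (CCAAT), the SP1 motif (GGGCGG), the TATA box (TATAAA), the YY1 motif, the octamer (ATTTGCAT) and the cAMP response element or CRE (TGACGTCA). The 3 strongest were pairs of H2B and H2A histone genes:
H2BC21/H2AC20, chr1:149858233-149858467: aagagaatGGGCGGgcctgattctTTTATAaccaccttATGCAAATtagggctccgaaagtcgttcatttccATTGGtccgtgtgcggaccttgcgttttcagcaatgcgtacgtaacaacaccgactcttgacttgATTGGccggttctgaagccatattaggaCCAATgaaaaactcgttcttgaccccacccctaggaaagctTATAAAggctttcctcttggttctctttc
H2BC12/H2AC12, chr6:27114635-27114884: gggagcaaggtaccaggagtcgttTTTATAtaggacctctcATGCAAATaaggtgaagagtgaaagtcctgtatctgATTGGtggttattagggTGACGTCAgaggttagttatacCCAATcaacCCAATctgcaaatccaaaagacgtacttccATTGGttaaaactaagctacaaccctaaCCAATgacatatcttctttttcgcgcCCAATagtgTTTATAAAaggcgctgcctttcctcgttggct
H2BC13/H2AC13, chr6:27775708-27775950: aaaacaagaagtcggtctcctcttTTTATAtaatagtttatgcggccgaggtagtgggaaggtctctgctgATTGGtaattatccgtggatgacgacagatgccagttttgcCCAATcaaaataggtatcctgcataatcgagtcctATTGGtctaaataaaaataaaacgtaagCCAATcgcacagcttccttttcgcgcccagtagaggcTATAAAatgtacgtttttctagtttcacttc
The 6 stretches that follow belonged to the strongest pairs without a histone gene:
TAFA2/USP15, chr12:62653952-62654118: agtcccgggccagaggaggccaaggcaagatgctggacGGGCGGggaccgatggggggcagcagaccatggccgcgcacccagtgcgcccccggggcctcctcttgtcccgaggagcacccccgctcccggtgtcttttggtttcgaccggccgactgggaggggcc
CCDC59/METTL25, chr12:82752189-82752306: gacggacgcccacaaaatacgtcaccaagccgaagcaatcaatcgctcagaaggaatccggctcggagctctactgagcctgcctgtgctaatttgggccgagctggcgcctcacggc
TRMT6/MCM8, chr20:5931205-5931297: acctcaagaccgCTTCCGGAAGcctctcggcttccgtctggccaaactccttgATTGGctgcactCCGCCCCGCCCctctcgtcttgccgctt
HMGB1/USPL1, chr13:31191735-31191829: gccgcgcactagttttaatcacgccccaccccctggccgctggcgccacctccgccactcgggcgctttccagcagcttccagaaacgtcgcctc
IDH1/PIKFYVE, chr2:209130799-209130978: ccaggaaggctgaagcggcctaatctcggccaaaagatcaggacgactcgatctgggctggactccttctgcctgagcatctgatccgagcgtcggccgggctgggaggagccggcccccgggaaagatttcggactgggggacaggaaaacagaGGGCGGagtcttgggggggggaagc
GGCX/VAMP8, chr2:85788656-85788684: gcggccggccgcaaagcgccagcactgtc

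All 3 histone gaps held a TATA box for each gene, pointing outward in the left and in the right part of the stretch, with 3, 6 and 4 CCAAT boxes between them in H2BC21/H2AC20, H2BC12/H2AC12 and H2BC13/H2AC13. The octamer, the element bound by OCT1 in H2B promoters, stood in the gaps of H2BC21/H2AC20 and H2BC12/H2AC12. None of the 6 other gaps held TATAAA or the octamer. The gap of TRMT6/MCM8, a subunit of a tRNA methyltransferase and a helicase of homologous recombination, held 2 ETS motifs, 2 SP1 motifs and 1 CCAAT box. In TAFA2/USP15 and IDH1/PIKFYVE a single SP1 motif was found, and in CCDC59/METTL25, HMGB1/USPL1 and GGCX/VAMP8 none of the 8 motifs was present in these letters. The GC content was 46.4%, 42.4% and 40.7% in the 3 histone gaps and between 59.3% and 75.9% in the 6 others.

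The precipitations differed widely. Replicate 1 gave 15017 DEK peaks and replicate 2 gave 152779, with 988363 and 4172422 tags in peaks. The false discovery rate in the list was 100% for every replicate 1 peak and between 0.74% and 16.67% in replicate 2, and no threshold on it was applied. The H3K4me3 lists held 47523 and 29335 peaks. As a check of the cell type, 9 of 11 myeloid marker genes (such as SPI1, CEBPA, MPO and CD33) carried H3K4me3 peaks of both replicates at a start, and CSF1R and TYROBP did not. None of 4 T cell markers, 4 erythroid markers, 1 liver marker and 2 neuron markers did, while 2 of 4 B cell markers, PAX5 among them, and 1 of 3 epithelial markers (KRT8) did. Over all coding genes, 78.9% of those with a bidirectional start and 46.7% of the others carried such peaks. Counts over so few markers therefore say little about the cell type. With 2 precipitations and no depth per library, no test was run between classes of intervals. The percentages carry 95% Wilson intervals for counting error only, and neighbouring intervals are not independent of each other.

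The first question was whether DEK peaks found in 1 precipitation were found again in the other at these promoters. Of 356 replicate 1 peaks at bidirectional coding promoters, 222 overlapped a replicate 2 peak, which was 62.4% (57.2 to 67.2). The same share was 43.8% (41.1 to 46.5) at unidirectional coding promoters, 32.6% (29.4 to 36.0) at noncoding starts and 24.4% (23.6 to 25.2) away from starts, against 27.4% of all replicate 1 peaks. From the side of replicate 2, 236 of 2983 peaks at bidirectional coding promoters (7.91%) had a replicate 1 partner, beside 4.01% at unidirectional ones and 2.9% of the whole list. In both directions the share was highest at bidirectional coding promoters. The 4 intervals of the replicate 1 shares did not overlap. Replicate 1 peaks at bidirectional promoters were also broader, with a median width of 1401 bp beside 1166 bp at unidirectional promoters, and a broader peak meets a peak of another list more easily. Counted by gene, 68.6% of all coding genes with a bidirectional start had a replicate 2 peak at a TSS and 11.3% a replicate 1 peak. Any TSS of the gene counted, also one that was not bidirectional. These are shares of genes, while 62.4% and 7.91% are shares of peaks that overlap a peak of the other list. They are not of the same kind and are not compared. The parts of peak width and of such general cover by the lists in the difference between promoter classes were not tested.

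Counted by gene, 449 of 7426 protein-coding genes with a bidirectional start (an opposite TSS within 1000 bp) had a shared DEK interval within 1000 bp, which was 6.05% (5.53 to 6.61). Among 12737 coding genes with unidirectional starts only, 435 had a shared interval at any TSS, or 3.42% (3.11 to 3.74). The share over all 20163 coding genes was 4.38%. Bidirectional genes more often carried H3K4me3: 78.9% of them had peaks of both replicates at a start, compared with 46.7% of the others. Within genes that had H3K4me3 in both replicates, the shares with a shared DEK interval came close to each other, at 7.37% (6.73 to 8.07) for 5860 bidirectional genes and 6.82% (6.21 to 7.49) for 5954 unidirectional genes. These intervals overlapped. In genes without H3K4me3 in both, the shares were 1.09% (0.679 to 1.73) and 0.428% (0.298 to 0.613). Leaving out histone genes gave 5.79% and 3.28%. Each share rested on both precipitations, since 68.6% of bidirectional coding genes had a replicate 2 peak when replicate 1 was left out and 11.3% had a replicate 1 peak when replicate 2 was left out.

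In all, 310 coding genes and 144 genes of long noncoding RNAs (lncRNAs) had a TSS within 1000 bp of the 233 intervals. A start pair was assigned to each interval from the TSS nearest to its middle on each strand, with coding starts taken first. Coding genes stood on both strands at 80 intervals (34.3%, 28.5 to 40.6). At 141 intervals (60.5%) the opposite start belonged to an lncRNA, and at 12 to a gene of another type. The name of the noncoding partner ended in DT, for divergent transcript, at 29 intervals and in AS, for antisense, at another 29. The pair is written below with the gene of the minus strand first.

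Most pairs pointed away from each other. The starts were divergent at 175 intervals (75.1%, 69.2 to 80.2), and at the other 58 the transcribed regions overlapped or converged. Pairs of coding genes were divergent in 67 of 80 cases (83.8%), and pairs of a coding and a noncoding gene in 108 of 153 (70.6%). The median gap between divergent starts was 203 bp, with 181 bp for coding pairs and 214.5 bp for the rest. The gap was at most 300 bp at 126 of the 175 and over 1000 bp at 8. The shortest gaps among head-to-head coding pairs were 1 bp at SOX6/C11orf58, 25 bp at ALG5/EXOSC8, 30 bp at GGCX/VAMP8, 42 bp at PPP2R3C/PRORP and 45 bp at SRGAP3/THUMPD3. EXOSC8 is a subunit of the RNA exosome, VAMP8 a SNARE of endosomal membranes and PRORP the nuclease of mitochondrial RNase P.

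**Figure D1:**
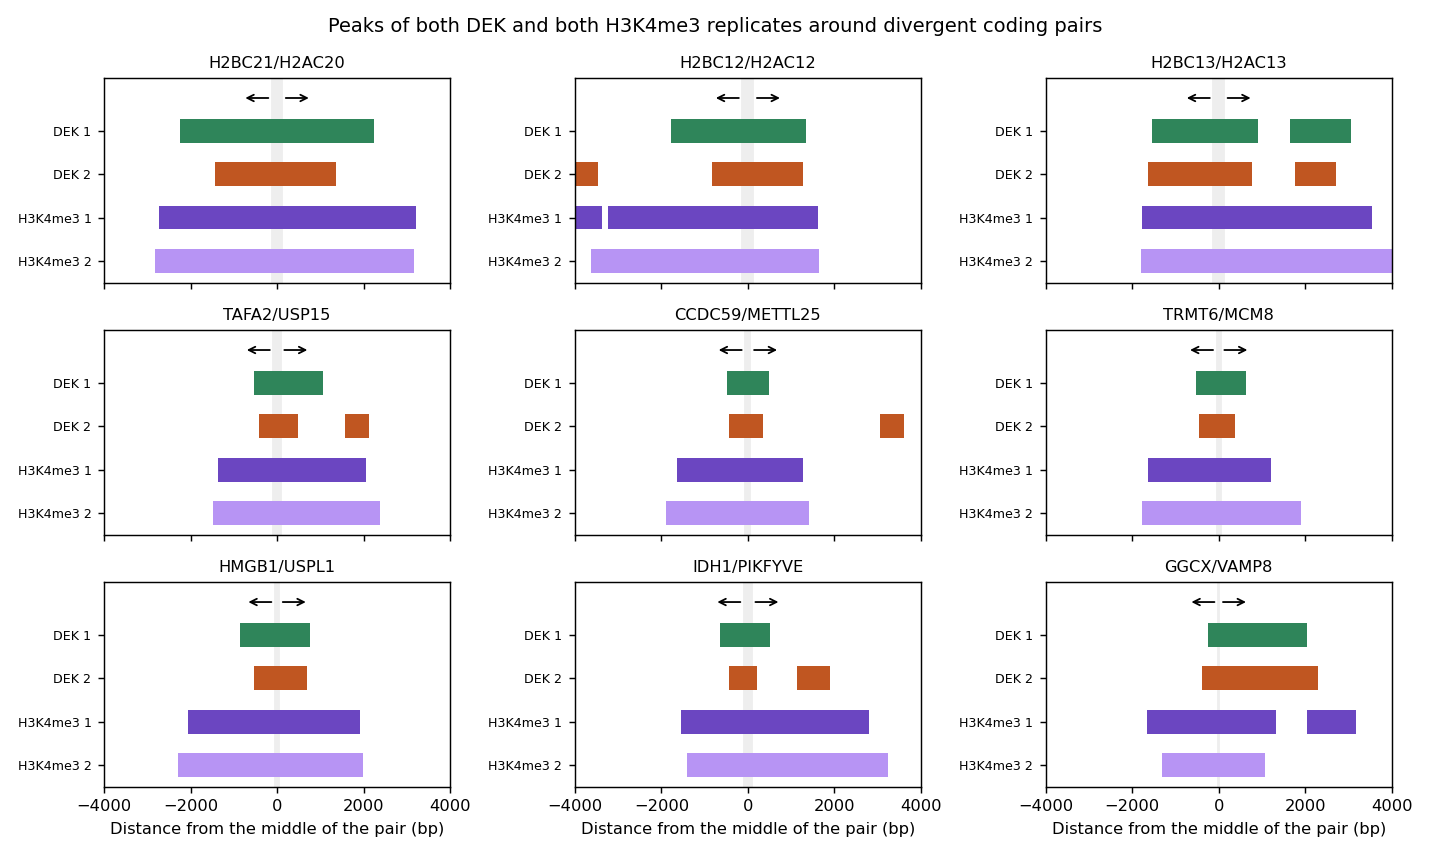
DEK and H3K4me3 peaks of both replicates around 9 divergent coding pairs, drawn as bars against the distance from the middle of the pair (bp), with arrows for the direction of each gene and grey for the gap between the starts. All 9 gaps lie under peaks of all 4 lists, and the H3K4me3 peaks are broader than the DEK peaks there, except that at GGCX/VAMP8 the replicate 2 peak of DEK is broader than that of H3K4me3.

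The rule put the middle of each interval near both starts, so its position is given as a description. The shared interval held both starts at 153 intervals (65.7%), and its middle lay between them at 34.8%. At divergent pairs the middle of the interval was within 500 bp of the middle of the gap in 90.9%, with a median distance of 150 bp. The peak summit, which each list gives for each peak, was within 500 bp in 81.7% in replicate 1 and 82.9% in replicate 2, at median distances of 204 and 248.5 bp. The summit itself fell in the gap at 32.0% (25.5 to 39.2) of divergent pairs in replicate 1 and at 29.7% (23.4 to 36.9) in replicate 2.

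At divergent pairs of 1 coding and 1 noncoding gene, the replicates placed the summits differently. In replicate 1 the summit was on the side of the noncoding gene in 50 of 108 cases (46.3%, 37.2 to 55.7) and on the side of the coding gene in 26 (24.1%, 17.0 to 32.9). In replicate 2 the same counts were 37 (34.3%, 26 to 43.6) and 38 (35.2%, 26.8 to 44.6). The noncoding side was thus ahead in replicate 1 only, while both sides were nearly equal in replicate 2. Summits of the replicates lay a median of 161 bp apart over the 233 intervals.

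**Figure D2:**
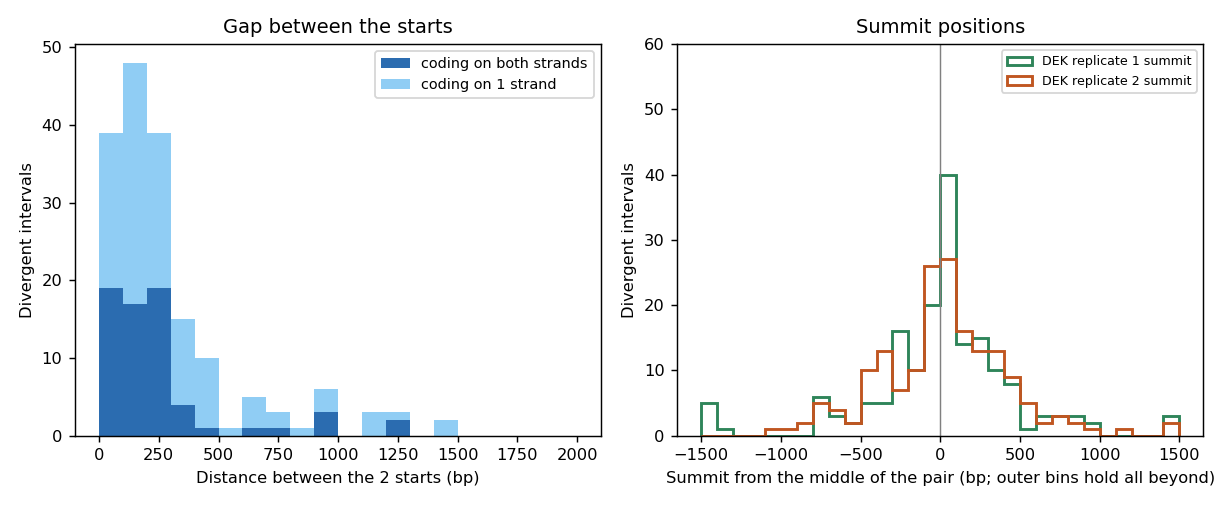
Left, number of divergent intervals by the distance between both starts (bp), split by coding genes on both strands or on 1 strand. Right, number of divergent intervals by the distance of the DEK summit of each replicate from the middle of the pair (bp), with 81.7% of replicate 1 and 82.9% of replicate 2 summits within 500 bp.

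The strength of binding was given in each list as a score, that is −log10 of the peak's p-value multiplied by 10, together with its number of tags and its fold enrichment over local background. Median scores at bidirectional coding promoters were 78.4 and 98.9 in replicates 1 and 2, and those at unidirectional ones 75.1 and 94.7. The difference of medians was 3.73 ± 0.62 score units (SD, n = 2). It was 1.03 ± 1.29 when intervals at histone genes were left out of both classes (15 and 17 intervals), -0.06 when they were left out of the bidirectional class alone, and -0.81 when starts within 500 bp were used, so it rested on a small set of pairs and on the distance allowed. Tags per kb of peak had medians of 56.9 and 35.6, beside 56.6 and 34.9 at unidirectional promoters, and fold enrichment of 4.82 and 3.85, beside 5.08 and 3.86. Apart from the histone pairs, binding strength at bidirectional promoters was close to that at other coding promoters. The shared intervals were somewhat wider, with medians of 980 and 860 bp.

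Scores of 100 or more in both replicates were reached by 42 of the 233 intervals (18.0%, 13.6 to 23.5), by 14.3% (11.8 to 17.3) of those at unidirectional promoters and by 11.8% of all shared intervals. Of the 42, 11 had a histone gene in the pair, 8 had other coding genes on both strands and 23 had a coding gene on 1 strand. Ranks by score differed between the replicates, with a Spearman correlation across the 233 intervals of 0.19, or 0.11 without histone pairs, and 0.64 for tags. The part of peak width in tags and scores was not tested, and these points share their libraries.

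**Figure D3:**
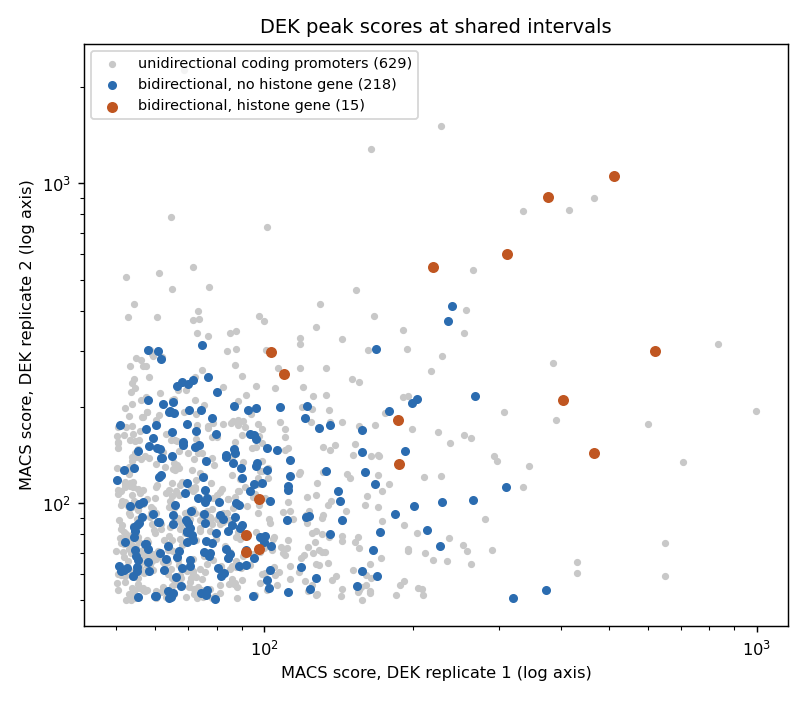
MACS score of each shared interval in DEK replicate 1 (horizontal, log axis) and replicate 2 (vertical, log axis) for 629 intervals at unidirectional coding promoters, 218 at bidirectional ones without a histone gene and 15 with a histone gene. The histone pairs lie toward the upper right, with median scores of 187.83 and 210.58, and the other bidirectional intervals lie within the cloud of the unidirectional ones.

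Histone genes stood at the top. They encode the core proteins of the nucleosome and the linker histone, lie in clusters on chromosomes 6 and 1, and are transcribed mainly in S phase. A histone gene was in the pair at 15 intervals, 13 of them on chromosome 6 and 2 on chromosome 1, with median scores of 187.83 and 210.58 and scores of 100 or more in both replicates at 11 (73.3%). All 15 overlapped H3K4me3 peaks of both replicates. Of 35 histone genes with a bidirectional start, 21 had a TSS within 1000 bp of one of the intervals, which was 60% (43.6 to 74.4) beside 4.05% of all coding genes with such a start. Histone genes with unidirectional starts only were bound about as often, with a shared interval at 18 of 34 (52.9%, 36.7 to 68.5), so frequent binding was shared by histone genes of both kinds. A further histone gene, H3C4, was reached through a pair whose starts lay over 1000 bp apart.

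The highest pair, H2BC21/H2AC20 at chr1:149856912-149859720, had a score of 513.7 from 363 tags in replicate 1 and of 1052.57 from 226 tags in replicate 2. Its interval of 2809 bp covered both start sites. H2BC12/H2AC12 at chr6:27113933-27116023 reached scores of 377.11 and 903.7, and H2BC13/H2AC13 at chr6:27774279-27776588 reached 311.31 and 599.05. Replicate 2 was the higher in these 3 pairs. In H2BC11/H2AC11 at chr6:27099142-27101927 replicate 1 was the higher, with 621.39 beside 298.52. The same held for H4C8 with its lncRNA partner ENSG00000289447, at 403.32 and 210.58. H3C12/H2BC17 had 219.64 and 546.62, and H4C14, at a start that faces an antisense RNA, had 186.59 and 182.14. The order of the histone pairs thus differed between replicates, and the weakest, H2AC15/H2BC15, had scores of 91.73 and 70.38 in the lower of its 2 intervals. Reads of near-identical histone gene copies can be shared between them, which the lists do not show.

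Of the 12 intervals with the highest lower score of the replicates, the other 5 held no histone gene. ANXA2R, which encodes a receptor for annexin A2, overlapped its antisense RNA ANXA2R-AS1 at chr5:43041821-43043711, and the scores were 239.93 from 109 tags and 414.12 from 76 tags. ZFP36L2, an RNA-binding protein that promotes decay of AU-rich mRNAs, faced LINC01126 across 604 bp at chr2:43453615-43455506, with scores of 235.89 and 371.26. VRK2, a serine/threonine kinase, overlapped the start of the lncRNA ENSG00000287875 by 58 bp at chr2:58272791-58274728, with scores of 268.13 and 215.65. All 3 were coding genes beside a noncoding RNA.

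The remaining pair of intervals lay at head-to-head coding genes. TFPT, a subunit of the INO80 chromatin remodeller, and PRPF31, a component of the U4/U6.U5 spliceosome particle, started 125 bp apart at chr19:54617235-54620087. The scores there were 204.08 from 156 tags in replicate 1 and 211.59 from 132 tags in replicate 2. TAFA2, a secreted chemokine-like protein, and USP15, a deubiquitinase, started 168 bp apart at chr12:62653621-62654519, with scores of 199.39 from 132 tags and 206.16 from 32 tags. In both pairs the replicates gave nearly the same score, although the tags at TAFA2/USP15 differed.

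Gene groups other than histones were closer to the share of all bidirectional coding genes (4.05%). Splicing factors had 5 of 30 bidirectional genes at an interval (16.7%, 7.34 to 33.6). Besides PRPF31 these were HNRNPA2B1, HNRNPD, SRSF11 and PRPF38A. HNRNPA2B1 and CBX3, a heterochromatin protein that reads methylated H3, share a well-known open promoter, and the interval there had scores of 89.3 from 316 tags and 83.52 from 119 tags. The low scores beside many tags came with fold enrichments of 3.62 and 2.29.

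Ribosomal proteins had 3 of 46 genes at an interval (6.52%, 2.24 to 17.5), among them RPL27A and RPS16, the latter head to head with SUPT5H, a transcription elongation factor. RPS12, whose partner SLC18B1 started 1230 bp away, came in addition. Mitochondrial ribosomal proteins had 2 of 39 (MRPS16 and MRPL30), proteasome subunits 1 of 16 (PSMD14), chaperones 1 of 24 (HSPA8) and replication factors 1 of 22 (ORC1, a subunit of the origin recognition complex, head to head with PRPF38A). HSPA8, the constitutive heat shock cognate protein, was the strongest of these, with scores of 107.62 and 200.42 from 190 and 82 tags. At ORC1/PRPF38A the scores were 95 and 51.53. None of 40 bidirectional DNA repair genes was at an interval (upper bound 8.76%), and none of 3 bidirectional myeloid genes. Nearly all members of these lists carried H3K4me3 of both replicates, with 40 of 40 repair genes, 30 of 30 splicing genes and 32 of 35 histone genes. The mark was general at such starts, with 5860 of all 7426 bidirectional coding genes (78.9%).

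Head-to-head pairs that textbooks often name were not among the 233. None of 15 such pairs, among them HSPD1/HSPE1, BRCA1/NBR2, ATM/NPAT and PPAT/PAICS, had a replicate 1 peak within 1000 bp of a start. A replicate 2 peak was found at 11 of them. Over all bidirectional coding genes, 11.3% had a replicate 1 peak and 68.6% a replicate 2 peak. Those are shares of single genes, while a pair was counted when either of its genes had a peak. The counts over these few pairs are therefore not read as a result about them. PPAT/PAICS and TAP1/PSMB9 were among the pairs without a peak in either replicate.

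The distance rule also left close neighbours on either side. Just inside were ENSG00000273188/TRABD, ELF1/WBP4 and ACSL1/ENSG00000251139, whose farther start lay 960, 972.5 and 992 bp from the middle. The nearest just outside was PATL2/B2M at 1004.5 bp. Scores ran from 55.13 to 81.73 at the 3 inside and were 89.8 and 62.97 at PATL2/B2M, and all 4 overlapped H3K4me3 peaks of both replicates.

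H3K4me3 was present at almost all bidirectional coding promoters with shared DEK binding. Of the 233 intervals, 220 (94.4%, 90.7 to 96.7) overlapped H3K4me3 peaks of both replicates, beside 455 of 629 (72.3%, 68.7 to 75.7) at unidirectional coding promoters, 48.8% at noncoding starts and 33.7% of all shared intervals. Counted by gene and whatever the DEK binding, 78.9% of bidirectional and 46.7% of unidirectional coding genes had H3K4me3 peaks of both replicates at a start. The order of the 2 coding classes was thus the same without DEK as a criterion. In the single lists the shares of the 233 were 95.3% in replicate 1 and 94.4% in replicate 2, against 49.9% and 34.1% of all shared intervals. Leaving out replicate 1 of DEK, which brings in 2983 intervals, gave 77.2%.

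With starts required on both strands, the intervals at bidirectional promoters lay closer to the nearest TSS by construction, at a median of 91.5 bp beside 229.5 bp, so the comparison was repeated within bins of distance. The shares with H3K4me3 in both were 96.0% (90.9 to 98.3) and 86.2% (80.3 to 90.6) at 0 to 100 bp, and 91.5% (80.1 to 96.6) and 78.5% (71.3 to 84.4) at 100 to 250 bp. They were 91.1% (79.3 to 96.5) and 64.1% (56.1 to 71.5) at 250 to 500 bp. Beyond 500 bp, where bidirectional promoters had 17 intervals, they were 100% (81.6 to 100) and 59.0% (51.3 to 66.3). The bidirectional share was the higher in each of the 4 bins, which is also the order over all coding genes whatever their DEK binding. In the bin of 100 to 250 bp the 2 Wilson intervals overlapped. The order was also kept within interval widths, with 78.8% and 56.3% under 700 bp and 98.9% and 81.2% at 700 bp or more.

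**Figure D4:**
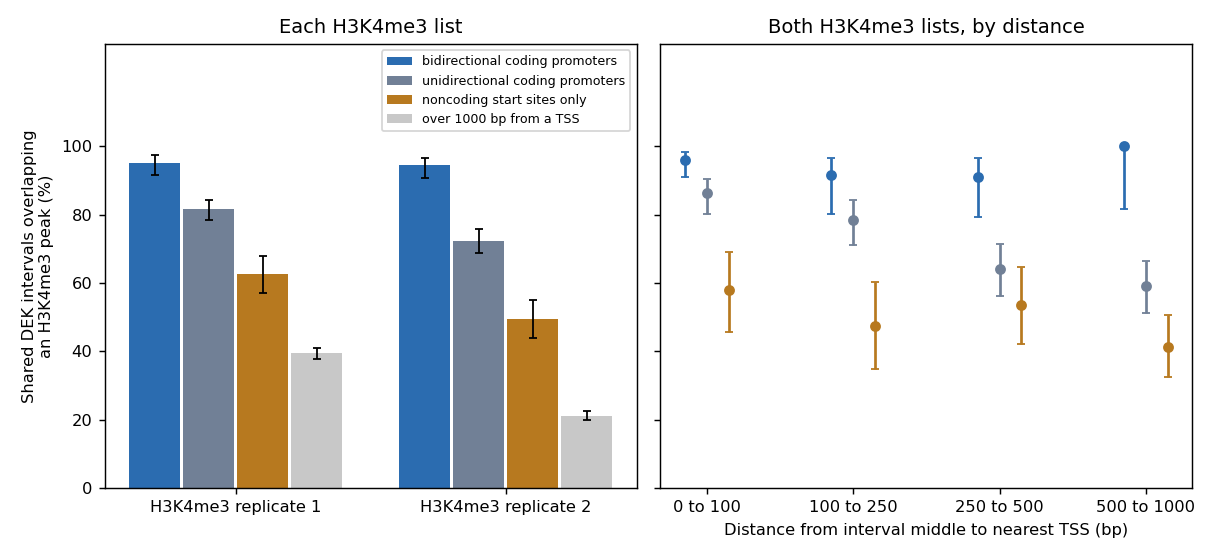
Share of shared DEK intervals that overlap H3K4me3 peaks (%), for each H3K4me3 list in 4 classes of intervals on the left, and for both lists by distance from the interval middle to the nearest TSS (bp) in the 3 classes near starts on the right, with bars or points for the share and whiskers for 95% Wilson intervals. Bidirectional coding promoters (blue) have the highest share in both lists and in each of the 4 distance bins.

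The H3K4me3 domains were broad enough to hold both starts. An H3K4me3 peak of replicate 1 covered both TSSs of the pair at 93.6% of the intervals and a peak of replicate 2 at 88.4%. The widest H3K4me3 peak at each interval had a median width of 3532 bp in replicate 1 and 3452 bp in replicate 2. At unidirectional promoters the same measure was 3204 and 3028 bp. All peaks of the lists had medians of 1479 and 1650 bp, which is another measure, since no widest peak was picked there.

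The 13 intervals without H3K4me3 in both replicates were mostly weak. At 11 of them neither list had a peak, and at the other 2, TSPOAP1/TSPOAP1-AS1 among them, replicate 1 had one. TSPOAP1/TSPOAP1-AS1 had DEK scores of 128.95 and 171.72 from 40 and 21 tags and was the only one of the 13 to score 100 or more in both replicates. At 5 of the 13 the window around the middle held very high copy sequence, which is defined next.

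A window reaching 150 bp to either side of each middle was read from GRCh37. Very high copy sequence, a stretch of 20 bases found at least 1000 times in the genome, was in 24 of the 233 windows (10.3%, 7.02 to 14.9), in 23.7% (20.5 to 27.2) of those at unidirectional promoters and in 49.6% of the windows of all 4435 shared intervals on the main chromosomes. Without such windows, 96.2% of intervals at bidirectional promoters had H3K4me3 in both replicates, against 78.1% at unidirectional ones. Bidirectional windows were richer in GC (median 62.1% beside 58.1%) and in CpG (observed over expected 0.83 beside 0.60). For comparison, a window of the same length was taken at a coding start for each of the 20163 coding genes. Its class was that of the gene. The median GC was 64.5% and CpG 0.82 for genes with a bidirectional start, and 61.1% and 0.63 for the others. The DEK windows at bidirectional promoters were thus near bidirectional starts in CpG, while their median GC lay between the medians of both kinds of start.

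Motifs were searched on both strands of these windows. The ETS motif (CCGGAAG), read by ETS factors and known to be frequent at bidirectional promoters, was in 17.2% (12.9 to 22.5) of the windows of the 233 and in 8.4% (6.5 to 10.9) at unidirectional DEK intervals. Without DEK as a criterion, with a window for each coding gene, the shares were 17.1% at bidirectional and 9.1% at unidirectional coding starts. Over all coding genes the share was 12.1%. The ETS share at DEK intervals therefore matched that of bidirectional starts in general within its interval.

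The SP1 motif (GGGCGG) was in 52.4% (46 to 58.7) and 36.7% (33.0 to 40.6) of DEK windows, and in 62.6% and 49.1% of windows at bidirectional and unidirectional coding starts. Both DEK shares were below those of the starts. The NRF1 motif was in 6.0% and 2.1% of DEK windows, and in 9.6% and 5.3% of start windows. The NF-Y motif (CCAAT) was in 26.2% (21.0 to 32.2) and 22.7%, against 34.0% and 33.5%. Windows of the DEK intervals were centred on the interval and not on a start, and the part of this in the lower shares was not tested.

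The RUNX motif (TGTGGT), read by RUNX factors of blood cells, went the other way. It was in 18 of the 233 windows (7.7%, 4.9 to 11.9) and in 18.8% (15.9 to 22) at unidirectional DEK intervals, while the start windows held it in 10.1% and 12.5%. Shared intervals at noncoding starts only held it in 21.7% and those farther from any TSS in 23.7%, so the unidirectional share was not the highest. The share at bidirectional intervals moved with the position and size of the window, and that at unidirectional intervals moved with it. The shares were 15.7% and 24.4% without DEK replicate 2, 12.6% and 19.4% with windows at the middle of the replicate 1 peak, and 15.5% and 28.9% in wider windows, with the bidirectional share the lower each time. The core of the PU.1 motif (AGGAA) was in 57.9% and 63.3% of DEK windows, near the 56.7% and 59.6% of start windows. The TATA box (TATAAA) was in 7.3% (4.6 to 11.4) and 6.2%, against 5.9% and 11.2% of start windows, and in 33.3% of the 15 windows with a histone gene. Leaving out either DEK replicate turned the order of the TATA box, with 4.12% and 6.29% without replicate 1 and 7.30% and 10.4% without replicate 2. The YY1 motif was in 3.4% and 1.3% of DEK windows and in 2.2% and 1.4% of start windows, and its DEK shares were 1.24% and 0.372% without replicate 1. The E-box (CACGTG) was in 7.3% and 7.9% of DEK windows (8.3% and 7.5% of start windows) and the CRE (TGACGTCA) in 1.3% and 0.8% (2.6% and 1.9%). Of these 10 motifs, 7 were more frequent at bidirectional than at unidirectional DEK intervals. The TATA box, among the 7, was in 5.50% and 6.21% without histone genes in either class. Without DEK as a criterion, ETS, NRF1, NF-Y, SP1, YY1, E-box and CRE motifs were the more frequent at bidirectional coding starts. Such a count is therefore not particular to DEK intervals.

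**Figure D5:**
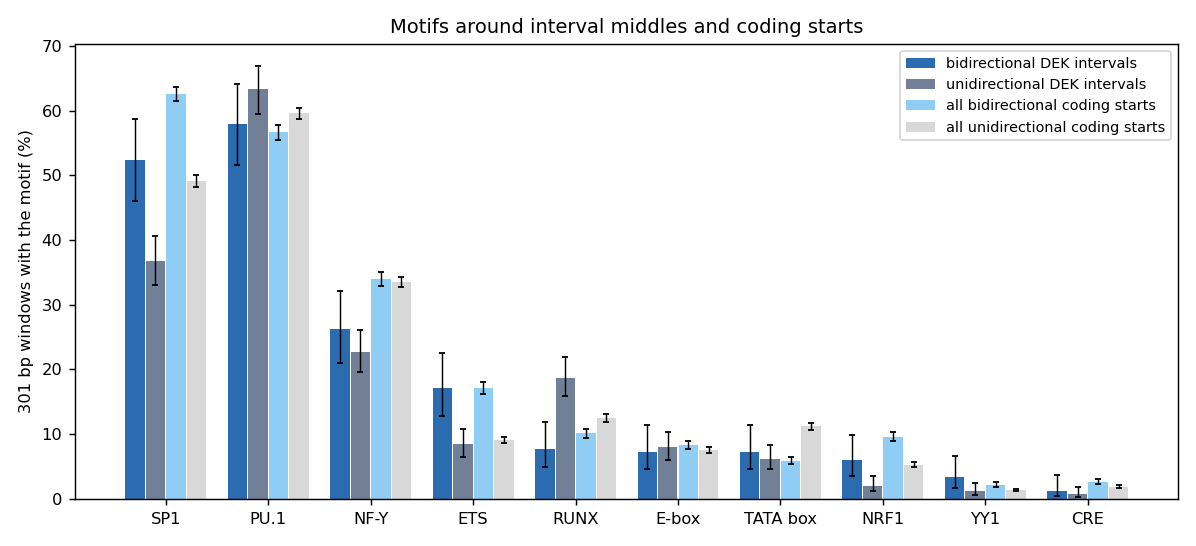
Share of windows around interval middles and starts that hold each of 10 motifs (%), with 95% Wilson intervals as whiskers. Groups are DEK intervals at bidirectional and unidirectional coding promoters, and coding starts of each kind with a window for each coding gene. The ETS bar of the bidirectional DEK intervals (17.2%) stands level with that of bidirectional starts (17.1%). Among the groups drawn, the RUNX bar is highest for unidirectional DEK intervals (18.8%).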

How the data were processed

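DEK and H3K4me3 were precipitated from U937 chromatin in 2 replicates each, and groups were taken from the labels. The submitters' processing notes name Bowtie2, MACS 1.4.1 and hg19; the role of each for the H3K4me3 lists, and whether these used Input as a control, were not given in the sources used here. Peaks were listed by the authors for each precipitation and were not pooled. The deposited DEK lists give for each peak a raw count of tags, a score (10 times the −log10 of the p-value), a fold enrichment, which is a ratio over local background, and the false discovery rate as a percent. The deposited H3K4me3 lists hold peak positions only, and no height. No list gives the depth of a library, so depth is unknown here.

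Shared intervals were intersections of at least 1 bp, and those on chromosomes 1 to 22, X and Y (4435 of 4453) were assigned to TSSs. No threshold was set on the score or false discovery rate. H3K4me3 overlap needed at least 1 bp. The genome sequence and GENCODE release 44, mapped to GRCh37, gave windows, motifs and copy numbers of 20-base stretches. The annotation is not necessarily the one the authors used, and annotated starts need not be active in U937. RefSeq promoter tables were not used, since positions on GRCh37 were needed.

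The members, gene lists and alternatives were chosen with earlier results of these data known. Genes named were those at the 12 intervals with the highest lower score, up to 4 bound members of each of 9 lists, the 15 textbook pairs, the 5 shortest gaps and members of counts of 5 or fewer. Sequences shown came from the 3 strongest histone pairs and the 6 strongest other pairs that passed the stated limits. The octamer and the pairs on either side of the distance limit were chosen after their values were seen. Shares have 95% Wilson intervals. Alternatives changed the overlap, the distance to a TSS, the TSS set, the score, the position used, the motif window and the replicates. Matplotlib 3.10.9, Numba 0.67.0, SciPy 1.17.1, pandas 2.3.3 and NumPy 2.4.6 were run under Python 3.11.15. All 8 checks of the scripts on simulated data gave the known answers. Some genes that the naming rule covers are not reported here.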

Additional observations from a re-analysis of the deposited data

How the results depend on the processing

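Of the summary values recomputed under each alternative, 90 moved by less than the spread used for them and 31 by more. Among shares of single motifs these counts were 120 and 20. No paired analysis was possible because these results come from no test, and each shared interval already joins both DEK replicates.

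The number of intervals was 80 when the opposite TSS had to be of a coding gene and 42 with scores of 100 or more in both replicates, and it ran from 356 to 2983 when 1 DEK replicate was left out. The share of bidirectional coding genes with a shared interval was 5.18% with starts within 500 bp, 7.43% within 2000 bp, 4.49% with only the outermost TSS of each gene, 1.04% with a score of at least 100, 5.25% without very high copy sequence, and 11.3% to 68.6% with a DEK replicate left out. The share with H3K4me3 in both was 90.3% within 2000 bp, 98.3% with outermost TSSs, 97.5% with coding opposite starts and 97.6% with scores of at least 100, and 77.2% to 95.3% with a replicate left out.

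The score difference was -0.81 within 500 bp, 5.50 within 2000 bp, 0.64 with scores of at least 100, 2.525 with the middle of the replicate 1 peak, 4.44 with that of the replicate 2 peak, 2.12 without very high copy sequence and 3.71 to 7.17 with a DEK replicate left out. Without histone pairs it was -0.0575, and without intervals at histone genes in either class 1.035, both alternatives chosen after seeing the data. The difference of median peak widths, 96.0 bp, was -86.8 bp with scores of at least 100 and 160.5 to 234.5 bp with a DEK replicate left out. The divergent share was 62.2% with outermost TSSs, 83.8% with coding opposite starts and 71.8% to 78.1% with a DEK replicate left out. The share with the middle between the starts was 42.9% with scores of at least 100 and 36.9% to 37.6% with a DEK replicate left out. The share with coding genes on both strands was 100% by construction where coding opposite starts were required, and 33.9% to 34.8% with a DEK replicate left out. Between 6 and 8 of 10 motifs were the more frequent at bidirectional intervals under every alternative run. No shared interval can lie outside the 15017 replicate 1 peaks, which bounds every count here.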

Other observations

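DEK peaks of 1 replicate alone also lay at bidirectional coding promoters. Of 356 replicate 1 peaks there, those without a replicate 2 partner overlapped H3K4me3 peaks of both replicates in 90.3% of cases, compared with 95.5% of those with a partner. At unidirectional coding promoters these shares were 58.8% and 72.8%. Of 2983 replicate 2 peaks at bidirectional coding promoters, 75.7% of those without a partner and 94.1% of those with one overlapped H3K4me3 of both replicates. Among replicate 2 peaks without a partner the share was 28.1% at unidirectional coding promoters, 9.53% at noncoding starts and 2.76% away from starts.

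At divergent pairs, a gap over 300 bp came with median scores of 85.9 and 92.9 over 49 intervals, and a gap of at most 300 bp with 77.2 and 92.5 over 126. Median tags were 107 and 44 at the wider gaps and 91.5 and 36 at the narrower ones. The difference was not tested. SCAF11, a splicing-related factor, and its lncRNA partner ENSG00000289046 had 694 and 284 tags with scores of 61.58 and 281.49, while ARID2, a subunit of the PBAF remodeller, had 914 and 79 tags with scores of 120.66 and 184.26 beside ENSG00000289229. These intervals were chosen after their values were seen.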
